A study of Mus musculus with 17 samples.

Results

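The phagocyte NADPH oxidase was described through 6 genes of its subunits and its proton channel, among 19938 genes measured by the arrays. They were chosen by function: Cybb and Cyba, which encode the membrane-bound core gp91phox (NOX2) and p22phox, the cytosolic subunit genes Ncf1 (p47phox) and Ncf4 (p40phox), the small GTPase gene Rac2, and Hvcn1, which encodes the voltage-gated proton channel. All 6 had a feature that named 1 gene.

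The enzyme takes electrons from NADPH in the cytosol and passes them through the membrane core to oxygen, which yields superoxide. In a resting phagocyte the cytosolic subunits stay apart from the core, and phosphorylation, phosphoinositide binding and a GTP-loaded Rac protein bring them together. Neutrophils and monocytes use it against microbes, and reactive oxygen made by it is a known means by which myeloid-derived suppressor cells restrain T cells.

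The study followed gene expression in suppressor cell subsets as a tumour grew, with Affymetrix Mouse Gene 1.0 ST arrays. Spleens of female BALB/c mice were pooled, CD11b+ cells were enriched with magnetic beads, and 2 subsets were sorted. Those called Mo (monocytic) had high Ly-6C with low Ly-6G, and those called PMN (polymorphonuclear) had the reverse. Mice carried subcutaneous Her-2/CT26 tumours, from a colon carcinoma line, or were naive, and no other treatment or allele is named. The 17 arrays fell into Mo from naive mice, Mo at 3 weeks and Mo at 6 weeks with 3 arrays each, PMN from naive mice with 4, and PMN at 3 weeks and at 6 weeks with 2 each. Naive mice carried no tumour, though the labels give their cells the same subset names. Ages are not given, and the labels do not say whether replicates came from separate pools of spleens, so p-values measure only the spread between these arrays.

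Levels below are log2 of the deposited intensity. The summed intensity of 10 monocyte marker genes lay between 17086 and 21413 in Mo arrays and between 2078 and 3278 in PMN arrays. The sum of 12 neutrophil marker genes lay between 2364 and 24714 in Mo and between 33484 and 76225 in PMN. By these sums the sorted subsets carried the markers of their labels. Of the monocyte list, C1qa and C1qb went the other way at every stage. They averaged 6.88 and 7.13 in naive Mo, against 8.01 and 8.33 in naive PMN. Mo and PMN arrays shared few exact values and were treated as normalized apart, so levels of the subsets are set side by side without a test.

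All 6 members moved together in PMN at 6 weeks, and the promoters of those with an entry are shown for that reason. Of the 6, 3 matched the RefSeq promoter table for GRCm38.p6, which is built on the C57BL/6J genome and not on BALB/c. Each window holds the 250 bases before a transcript start, on the minus strand: Cybb at chrX:9469325-9469574, Cyba at chr8:122432941-122433190 and Ncf1 at chr5:134229626-134229875. Capitals mark CCAAT, the letters of the CCAAT box.
Cybb: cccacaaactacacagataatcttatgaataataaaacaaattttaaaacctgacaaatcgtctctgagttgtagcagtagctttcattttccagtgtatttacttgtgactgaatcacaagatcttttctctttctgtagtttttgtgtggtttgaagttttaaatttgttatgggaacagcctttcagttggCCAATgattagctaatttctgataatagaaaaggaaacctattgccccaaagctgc
Cyba: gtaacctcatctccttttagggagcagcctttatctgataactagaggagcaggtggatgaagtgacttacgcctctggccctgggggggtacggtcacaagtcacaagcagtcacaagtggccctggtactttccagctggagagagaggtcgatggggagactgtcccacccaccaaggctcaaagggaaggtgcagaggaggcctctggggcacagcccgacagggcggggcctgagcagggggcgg
Ncf1: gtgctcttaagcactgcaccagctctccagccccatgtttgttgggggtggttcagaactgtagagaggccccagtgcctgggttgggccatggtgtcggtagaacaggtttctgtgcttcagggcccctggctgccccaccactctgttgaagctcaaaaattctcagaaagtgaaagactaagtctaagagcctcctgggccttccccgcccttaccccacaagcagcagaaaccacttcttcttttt
The letters GAGGAA, a core bound by the myeloid factor PU.1, were searched on both strands and are in 0 of the 3 windows, against 25.85% of the 27025 genes with a window of this length. CCAAT, also searched on both strands and nowhere overlapping GAGGAA here, is in 1 of 3, the Cybb window, at 56 to 52 bases before the start, against 37.49% of genes. These matches describe letters only and say nothing of binding.

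In PMN, all 6 members rose at 6 weeks against naive mice, by 2.09-fold to 4.53-fold. This held for the membrane core, the cytosolic subunits, the GTPase and the proton channel, and every 6-week array lay above every naive array for each of them. At 3 weeks no member passed the test. Because whole sorted populations were measured, a change in the share of a cell type and a change in RNA per cell cannot be told apart.

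Cybb, the catalytic subunit that carries the electrons, lay in PMN at 11.93, 11.87, 11.37 and 11.81 in naive mice, at 11.66 and 11.05 at 3 weeks, and at 13.31 and 13.29 at 6 weeks. The 6-week arrays stood apart above all others, and the 3-week arrays lay within and below the naive range. The 6-week change against naive was 1.55 ± 0.15 (log2 change, SE), 2.93-fold, with an adjusted p of 4.5e-07. Cyba, whose product stabilises the catalytic subunit and docks the organizer, lay at 9.40, 9.98, 9.28 and 9.28 in naive PMN, 9.74 and 9.43 at 3 weeks, and 11.47 and 11.45 at 6 weeks. Again only the 6-week arrays lay outside the range of the other stages. Its change of 1.98 ± 0.19 (SE) was 3.93-fold (adjusted p = 3.63e-07).

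Ncf1, the organizer that carries the cytosolic subunits to the membrane, lay at 10.78, 10.38, 10.22 and 10.67 in naive PMN, 10.19 and 9.99 at 3 weeks, and 12.13 and 12.23 at 6 weeks. Both 3-week arrays lay just below the naive arrays and both 6-week arrays well above them. The 6-week change was 1.67 ± 0.14 (SE), 3.18-fold (adjusted p = 1.44e-07). Ncf4, whose product binds a phosphoinositide of the phagosome membrane, lay at 9.26, 9.40, 9.20 and 8.85 in naive PMN, 9.28 and 9.25 at 3 weeks, and 11.35 and 11.36 at 6 weeks. The 3-week arrays lay inside the naive range. Of the 6 members it had the largest change, 2.18 ± 0.17 (SE) or 4.53-fold (adjusted p = 5.89e-08).

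Rac2, the Rac GTPase of blood cells that switches the enzyme on, lay at 10.60, 10.69, 10.38 and 10.44 in naive PMN, 10.62 and 10.43 at 3 weeks, and 11.58 and 11.61 at 6 weeks. The naive and 3-week arrays overlapped and the 6-week arrays lay above both. Its change was 1.07 ± 0.15 (SE), 2.09-fold (adjusted p = 2.41e-05). Hvcn1, whose channel lets protons out and so balances the charge moved by the enzyme, lay at 8.08, 7.96, 7.68 and 7.95 in naive PMN, 7.77 and 7.71 at 3 weeks, and 9.10 and 8.95 at 6 weeks. The stages ordered as for Rac2. The change was 1.11 ± 0.18 (SE), 2.16-fold (adjusted p = 7.91e-05).

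**Figure D1:**
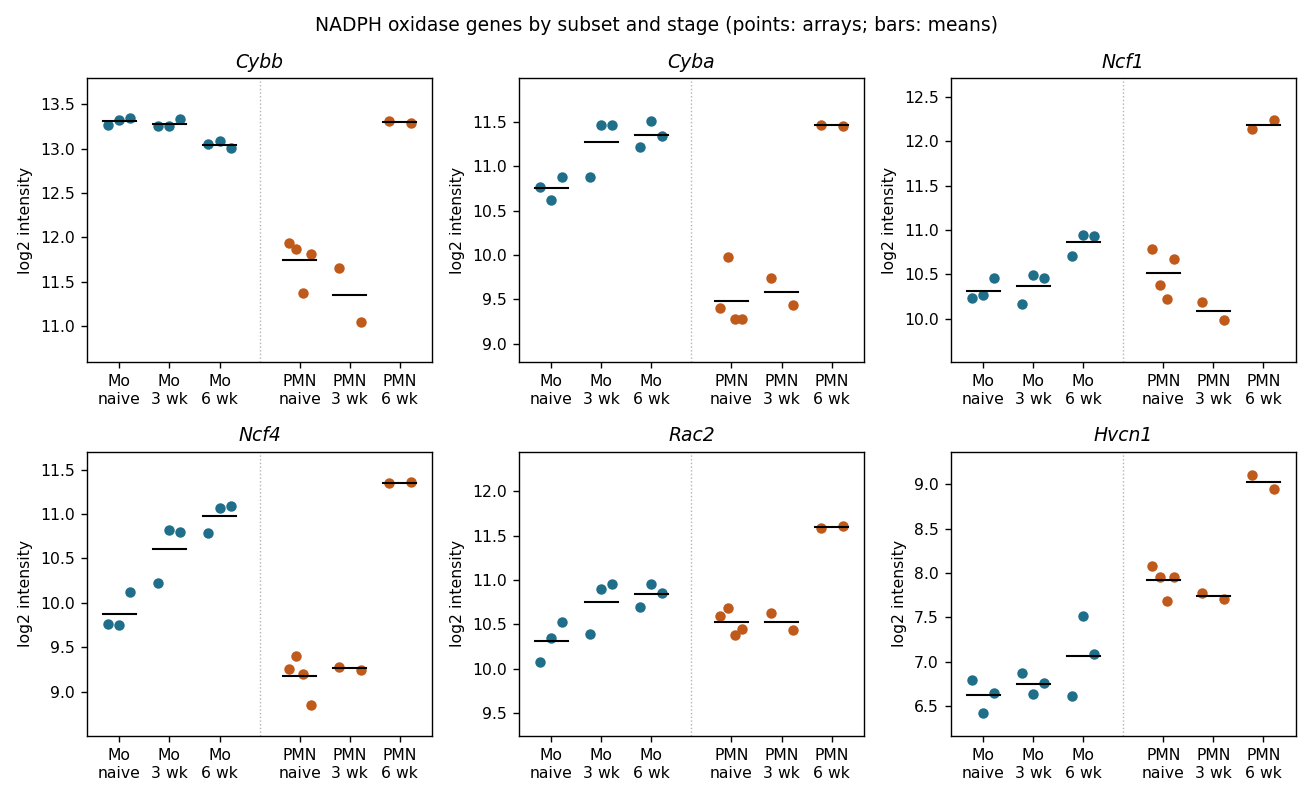
Log2 intensity of the 6 members in every array, by subset and stage, with 1 point per array and a bar at the group mean. In PMN the 6-week arrays lie above the others in all 6 panels, while in Mo Cybb is lower at 6 weeks, with a mean of 13.05 against 13.31 in naive mice.

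The count of 6 members higher of 6 stands beside 25.5% of all genes higher and 40.0% lower in the same comparison. For arrays that do not overlap, the 6 of 6 above stand beside 28.8% of all genes. The median change of the members was 1.61, against -0.18 over all genes. All 6 passed with each of the other settings and with each array left out.

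PMN at 6 weeks also lay above PMN at 3 weeks for all 6 members, against 23.7% of all genes called higher and 34.9% called lower, and 30.0% of genes had all 6-week arrays above the 3-week arrays. This comparison shares its 6-week arrays with the one against naive mice. The change was 2.09 ± 0.17 (SE) for Ncf1 (adjusted p = 1.15e-07), 2.09 ± 0.20 for Ncf4 (adjusted p = 6.53e-07) and 1.95 ± 0.17 for Cybb (adjusted p = 3.81e-07). Cyba changed by 1.87 ± 0.22 (adjusted p = 4.35e-06), Hvcn1 by 1.28 ± 0.21 (adjusted p = 0.000108) and Rac2 by 1.07 ± 0.18 (adjusted p = 0.000139). With only 2 arrays in each group, the spread in these tests comes largely from the other groups of the fit.

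At 3 weeks against naive PMN, limma called 0 members and 0 of the 19938 genes (0%), with 374 genes at an unadjusted p below 0.05. The nearest members were Ncf1, with a change of -0.42 ± 0.14 (SE, unadjusted p = 0.00894), and Cybb, with -0.40 ± 0.15 (unadjusted p = 0.018). For Ncf1 both 3-week arrays lay below every naive array, as 5.12% of all genes did. The other 4 members had changes between -0.18 and 0.10. No difference in the members was detectable here with 2 arrays against 4.

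In Mo, 5 of the 6 members rose at 6 weeks against naive mice, by 1.36-fold to 2.15-fold, and Cybb did not. Ncf4 had the largest change, as it had in PMN. Of all genes, 21.8% were called higher and 24.4% lower in this comparison. The members had a median change of 0.53, against -0.09 over all genes.

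Cybb was at a high level in Mo at every stage, at 13.27, 13.32 and 13.35 in naive mice, 13.26, 13.26 and 13.33 at 3 weeks, and 13.05, 13.08 and 13.002 at 6 weeks. All 6-week arrays lay below all naive arrays, as did those of 31.4% of genes. The change was -0.26 ± 0.14 (SE, 95% interval -0.56 to 0.04, adjusted p = 0.131). It depended on the scaling: after quantile normalization over all arrays it was -0.47 (adjusted p = 0.0475), and after centring each array on its median it was -0.08. With Mo fitted alone, on the same values, the change was again -0.26 and passed (adjusted p = 0.0406). That fit takes its spread from Mo arrays only. The SD of Cybb was 0.04 in each Mo group, against 0.26 in naive PMN, 0.43 in PMN at 3 weeks and 0.01 at 6 weeks. Cyba, its partner in the membrane, had levels of 10.77, 10.61 and 10.88 in naive Mo, 10.88, 11.46 and 11.46 at 3 weeks, and 11.22, 11.50 and 11.34 at 6 weeks. The naive arrays lay below the 6-week arrays, and 2 of the 3-week arrays were as high as those at 6 weeks. The 6-week change of Cyba was 0.60 ± 0.18 (SE), 1.52-fold (adjusted p = 0.0138).

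Ncf1 had levels of 10.23, 10.27 and 10.45 in naive Mo, 10.17, 10.49 and 10.46 at 3 weeks, and 10.71, 10.94 and 10.93 at 6 weeks. Its naive and 3-week arrays overlapped, and the 6-week arrays were higher than both. The change at 6 weeks against naive was 0.54 ± 0.14 (SE), 1.46-fold (adjusted p = 0.00565). Ncf4 had levels of 9.76, 9.75 and 10.12 in naive Mo, 10.22, 10.81 and 10.79 at 3 weeks, and 10.79, 11.07 and 11.09 at 6 weeks. Here the 3-week arrays already lay above the naive arrays. The 6-week change was 1.10 ± 0.16 (SE), 2.15-fold (adjusted p = 0.000105).

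Rac2 had levels of 10.08, 10.35 and 10.53 in naive Mo, 10.40, 10.90 and 10.95 at 3 weeks, and 10.70, 10.96 and 10.86 at 6 weeks. All 6-week arrays and 2 of the 3 arrays at 3 weeks lay above the naive range. The 6-week change was 0.52 ± 0.14 (SE), 1.43-fold (adjusted p = 0.00983). Hvcn1 had levels of 6.80, 6.43 and 6.65 in naive Mo, 6.87, 6.64 and 6.76 at 3 weeks, and 6.61, 7.51 and 7.08 at 6 weeks. These arrays had median log2 intensities between 6.57 and 6.83, so the proton channel gene lay near the middle of all features in Mo, and its groups overlapped. The change was 0.44 ± 0.17 (SE), 1.36-fold (adjusted p = 0.0409). That call was lost when replicate 2 or 3 of either group was left out, with a floor of 64 and with Mo fitted alone (adjusted p between 0.0615 and 0.245), and the change was 0.22 without 6-week replicate 2.

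The 6-week arrays of Cyba, Ncf1, Ncf4 and Rac2 lay above all naive Mo arrays, as did those of 23.7% of genes. Ncf4 passed under each setting and with each array left out. After quantile normalization over all arrays the changes of Cyba (0.42, adjusted p = 0.0747), Ncf1 (0.38, adjusted p = 0.0587) and Rac2 (0.35, adjusted p = 0.0657) did not pass. Cyba also did not pass without Mo naive replicate 2 (adjusted p = 0.058) or 6-week replicate 2 (adjusted p = 0.0606), nor did Rac2 without naive replicate 1 (adjusted p = 0.0605).

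**Figure D2:**
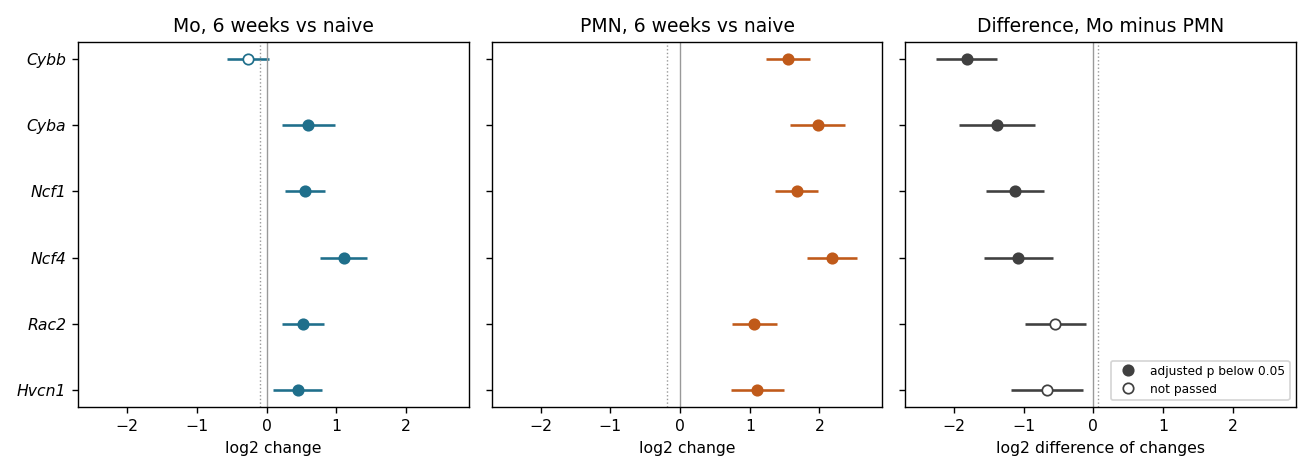
Log2 change at 6 weeks against naive mice with its 95% interval for each member in Mo (left) and PMN (middle), and the difference of the changes, Mo minus PMN (right). Filled points passed at an adjusted p below 0.05, the dotted line is the median of all genes, and Cybb differs most between the subsets, by -1.81.

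At 3 weeks against naive Mo, Ncf4 was the only member to pass, with a change of 0.73 ± 0.16 (SE), 1.66-fold (adjusted p = 0.0262), where 5.20% of all genes were called higher and 0.833% lower. Cyba had a change of 0.51 ± 0.18 (adjusted p = 0.0775) and Rac2 of 0.43 ± 0.14 (adjusted p = 0.0717). Cyba and Ncf4 had all 3-week arrays above all naive arrays, as 10.5% of genes did. Cybb, Ncf1 and Hvcn1 had changes between -0.03 and 0.13. The call on Ncf4 was lost when replicate 1 or 2 of the naive group was left out, or replicate 2 or 3 of the 3-week group (adjusted p between 0.131 and 0.209). It was also lost with a floor of 64 or with Mo fitted alone. Without 3-week replicate 1 the count of members that passed was 3. With array weights, or with the replicate number as a block, the count was 3 as well, and with the block Cyba and Rac2 passed beside Ncf4.

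At 6 weeks against 3 weeks in Mo, Ncf1 was the only member to pass, with 0.49 ± 0.14 (SE), 1.41-fold (adjusted p = 0.0321), where 4.38% of all genes were called higher and 3.13% lower. Its 6-week arrays lay above its 3-week arrays, as those of 6.47% of genes did. Cybb had a change of -0.24 (adjusted p = 0.42), with the 6-week arrays below the 3-week arrays, as for 6.80% of genes. The other 4 members had changes between 0.09 and 0.37. The call on Ncf1 was lost without 3-week replicate 1 or 6-week replicate 2 or 3 (adjusted p between 0.124 and 0.136) and after median centring (0.54, adjusted p = 0.0702), joint quantile normalization (0.42, adjusted p = 0.0875) or a floor of 64 (adjusted p = 0.0736). With array weights, or with the replicate number as a block, the count of members that passed was 2.

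The 6-week change was smaller in Mo than in PMN for Cybb, Cyba, Ncf1 and Ncf4, and the difference itself was tested. Of all genes, 11.0% had a lower change in Mo than in PMN and 6.47% a higher one. For Cybb the Mo change minus the PMN change was -1.81 ± 0.21 (SE, adjusted p = 2.14e-05), for Cyba -1.38 ± 0.26 (adjusted p = 0.00144), for Ncf1 -1.13 ± 0.20 (adjusted p = 0.000831) and for Ncf4 -1.08 ± 0.23 (adjusted p = 0.00422). For Rac2 the difference was -0.55 (95% interval -0.99 to -0.11, adjusted p = 0.0847) and for Hvcn1 -0.67 (95% interval -1.18 to -0.15, adjusted p = 0.0726), and neither passed. Rac2 passed without Mo naive replicate 1 (adjusted p = 0.0385) or Mo 3-week replicate 1 (adjusted p = 0.0268) and with array weights (adjusted p = 0.0153), and Hvcn1 without Mo 6-week replicate 2 (-0.89, adjusted p = 0.00827). The step to 6 weeks counted from 3 weeks differed for all 6, between -2.18 for Cybb and -0.97 for Hvcn1, where 17.3% of all genes were lower and 11.9% higher. That contrast uses the same 6-week arrays, and without PMN 6-week replicate 1 Hvcn1 did not pass (-0.89, adjusted p = 0.0555).

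For the change at 3 weeks against naive mice, limma called 0 members and 1 of 19938 genes (0.00502%) different between Mo and PMN. At an unadjusted p below 0.05 there were 2 members, beside 3312 of the 19938 genes. The differences ran from 0.31 for Hvcn1 to 0.64 for Ncf4. With array weights the count of members was 4, and without Mo 3-week replicate 1 it was 2. Over all genes the count ran from 1 to 6358 under the other settings, and from 0 to 3242 with an array left out.

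**Figure D3:**
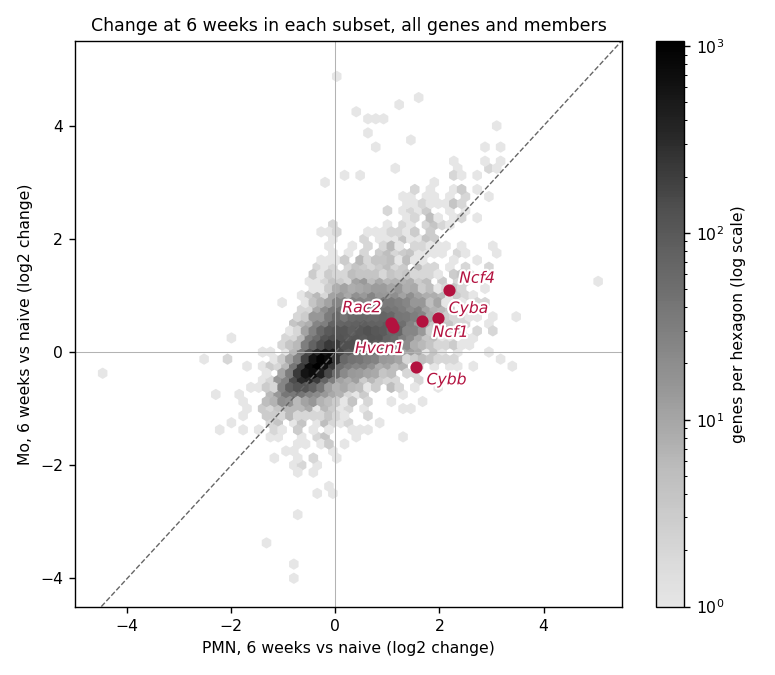
Log2 change at 6 weeks against naive mice in Mo (vertical axis) and PMN (horizontal axis), with all 19938 genes as hexagons shaded by their number and the 6 members as red points. All 6 members lie to the right of 0 and below the dashed line of equal change, and Cybb alone lies below 0 for Mo.

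The level of Cybb averaged 13.05 ± 0.04 in Mo and 13.30 ± 0.01 in PMN at 6 weeks, against 13.31 ± 0.04 in naive Mo and 11.75 ± 0.26 in naive PMN (SD, n = 3, 2, 3 and 4). After quantile normalization over all arrays, an alternative that puts both subsets on 1 scale, Cybb averaged 12.64 in Mo and 13.49 in PMN at 6 weeks, against 13.11 in naive Mo and 12.17 in naive PMN. On either scale Cybb was higher in Mo than in PMN in naive mice and lower at 6 weeks. Hvcn1 averaged 7.07 ± 0.45 in Mo and 9.03 ± 0.11 in PMN at 6 weeks, and was lower in Mo at every stage on either scale. Cyba and Ncf4 changed order with the stage on the deposited scale: Ncf4 averaged 10.98 ± 0.17 in Mo and 11.35 ± 0.00 in PMN at 6 weeks, against 9.88 ± 0.21 in naive Mo and 9.17 ± 0.23 in naive PMN. After joint normalization Ncf4 averaged 9.65 in naive Mo and 9.67 in naive PMN, so its order in naive mice was not stable to the scale. Ncf1 and Rac2 also changed order on the deposited scale, with the higher mean in Mo at 3 weeks only. There Ncf1 averaged 10.37 in Mo and 10.09 in PMN, and Rac2 10.75 and 10.53. After joint normalization Ncf1 and Rac2 were lower in Mo at every stage. These levels were not tested.

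The members did not all follow one course. Over the 4 changes against naive mice (both subsets at 3 and 6 weeks), likeness was taken as the root mean square (RMS) difference of log2 changes, in which changes of 1 subset share their naive arrays. Rac2 and Hvcn1 were the most alike pair, with 0.18, then Cyba and Ncf4 with 0.292. Cybb and Ncf4 were the least alike, with 0.876. Among 2525 other genes of at least log2 8 in both subsets, the nearest to Cybb was Lyz2, which encodes lysozyme of phagocytes, at 0.116. The nearest to Cyba was Chp1 at 0.0801, to Ncf1 Fam111a at 0.115, to Ncf4 Psma6 at 0.109, to Rac2 Snx4 at 0.0235 and to Hvcn1 Cnot1 at 0.0601.

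In the RefSeq annotation of GRCm38.p6, Ncf4 (chr15:78244164-78262582) and Rac2 (chr15:78559169-78572783) lie on the same chromosome, 296586 bases apart. Of 16 genes annotated between them, 10 were measured. In Mo at 6 weeks 2 of these rose and 2 fell, with a median change of -0.11, beside 21.8% of all genes higher and 24.4% lower. In PMN 3 rose and 6 fell, with a median of -0.32, beside 25.5% higher and 40.0% lower. Cybb lies at chrX:9435252-9487766, Cyba at chr8:122424771-122432940, Ncf1 at chr5:134220053-134229628 and Hvcn1 at chr5:122206805-122242297.

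The counts of related genes below stand beside 21.8% of all genes higher and 24.4% lower in Mo at 6 weeks, and 25.5% higher and 40.0% lower in PMN. Of the partners that help the complex form, 4 were measured: in Mo at 6 weeks against naive mice 0 rose and 1 fell, and in PMN all 4 rose. Cybc1, whose product is needed for a stable membrane core, had a change of 0.10 ± 0.11 in Mo (SE, adjusted p = 0.475) and of 0.93 ± 0.12 in PMN (adjusted p = 9.04e-06). Rac1, the Rac of most tissues, had a change of 0.01 ± 0.08 in Mo (adjusted p = 0.962) and 0.24 ± 0.09 in PMN (adjusted p = 0.0283). Rap1a, a small GTPase that copurifies with the membrane core, fell by 0.38 in Mo and rose by 0.65 in PMN. The Mo change was lower than the PMN change, by the test of the difference, for 3 of the 4.

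Of 7 measured genes for enzymes that supply NADPH, 5 rose and 2 fell in Mo, with a median of 0.33, and 6 rose and 1 fell in PMN, with a median of 0.79. Tkt, the transketolase of the pentose phosphate pathway, rose by 1.15 in Mo and 2.37 in PMN. Pgd, a dehydrogenase of the same pathway, rose by 0.72 in Mo and 1.18 in PMN, and Idh1, the cytosolic isocitrate dehydrogenase, by 0.33 in Mo and 2.30 in PMN. The malic enzyme gene Me1 fell in both, by 0.52 in Mo and 0.67 in PMN. Its group means lay between 5.65 and 6.60, below the array medians, so its probes were not shown to be above background. Nadk, the kinase that makes NADP, fell by 0.60 in Mo and rose by 0.79 in PMN.

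Among 10 genes that load Rac proteins, unload them or hold them inactive, 3 rose and 2 fell in Mo, and 7 rose and 1 fell in PMN. Arhgdib, which holds Rac proteins in the cytosol, rose by 0.64 in Mo and 1.64 in PMN. The exchange factor gene Vav1 rose by 0.59 in Mo and 1.26 in PMN, while Tiam1 had a change of -0.04 in Mo that did not pass and rose by 1.84 in PMN. Of 13 kinase and lipase genes upstream of assembly, 3 rose and 1 fell in Mo, and 9 rose and 1 fell in PMN. The Mo counts of rises among the Rac genes and among these are near the share over all genes. Pld1, a phospholipase D, rose by 1.14 in Mo and 2.30 in PMN, and Pla2g4a, the cytosolic phospholipase A, by 0.55 in Mo and 1.25 in PMN.

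Of 10 genes for transcription factors known to act on oxidase subunit genes or on phagocyte maturation, 3 rose and 1 fell in Mo, and 4 rose and 2 fell in PMN. Over all genes 21.8% were higher and 24.4% lower in Mo, and 25.5% and 40.0% in PMN. The Mo count of rises is near that share. Spi1, which encodes PU.1, rose by 0.35 in Mo and 0.82 in PMN. Cebpe, a factor of late granulocyte maturation, had a change of 0.31 in Mo that did not pass (adjusted p = 0.0522) and rose by 1.24 in PMN. Irf8, a monocyte lineage factor, rose by 0.62 in Mo and fell by 0.52 in PMN. Irf1, an interferon response factor, fell by 1.05 in Mo and had a change of 0.21 in PMN (adjusted p = 0.188). Of 9 genes of the other oxidases and their partners, from the Nox, Noxo, Noxa and Duox families, 6 fell and 0 rose in Mo, and 7 fell and 0 rose in PMN. Their group means lay between 4.77 and 7.62. Noxo1 averaged 7.62 in naive Mo, where array medians reached 6.83. In naive PMN, where medians reached 6.57, Noxo1 averaged 7.17 and Duoxa1 7.16. The other genes lay near the array medians or below them. None of the 9 genes was shown to be above background, so the size of these changes is uncertain. Their median changes were -0.38 in Mo and -0.59 in PMN, against -0.09 and -0.18 over all genes.

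**Figure D4:**
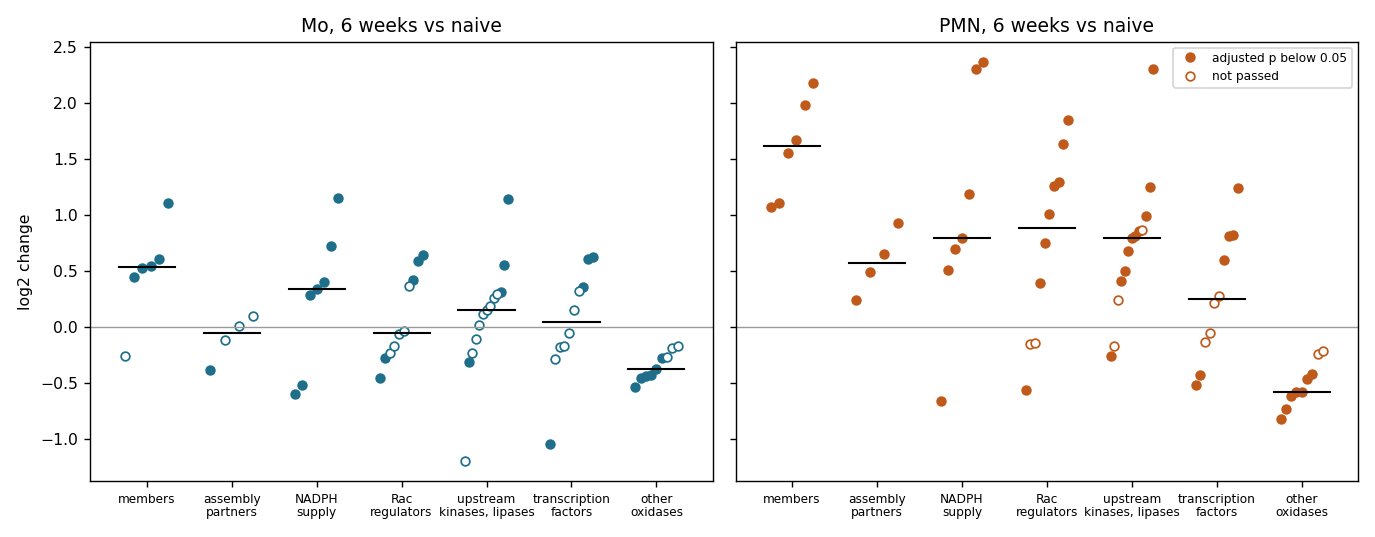
Log2 change at 6 weeks against naive mice for the members and 6 lists of related genes in Mo (left) and PMN (right), 1 point per gene, filled where the adjusted p was below 0.05, with a line at the median. The medians of the members are 0.53 in Mo and 1.61 in PMN, and those of the other oxidases, measured at low signal, are -0.38 and -0.59.

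Markers of other cells and of maturation moved with the members. In PMN the 12 neutrophil markers summed to between 71524 and 76225 at 6 weeks, against 34759 to 37250 in naive mice, with 9 of 12 higher and 1 lower, and the 8 granulocyte precursor markers summed to between 3245 and 3974, against 800 to 871, with 6 of 8 higher. The 9 B cell markers summed to between 1173 and 1261 in PMN at 6 weeks, against 3102 to 3643 in naive mice, and 9 of 9 fell. Ly6g, the gene of the sorting antigen, rose by 2.43 in PMN. The part of these shifts in the rise of the members was not tested.

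In Mo the 8 precursor markers summed to between 7728 and 18350 at 6 weeks, against 811 to 1509 in naive mice, and 8 of 8 rose. The 12 neutrophil markers summed to between 11059 and 24714 at 6 weeks, against 2364 to 3147 in naive mice, with 9 of 12 higher and 1 lower. Markers of several other cell types were lower, though not of all. T and NK cell markers fell for 8 of 9, with sums of 525 to 667 at 6 weeks against 1060 to 1483 in naive mice. B cell markers fell for 7 of 9 and platelet markers for 3 of 5, while dendritic cell markers fell for 6 of 8 and rose for 1. For erythroid markers 0 of 4 passed, with sums of 529 to 2418 at 6 weeks against 563 to 965 in naive mice. Of the 10 monocyte markers, 5 fell and 1 rose. Mo 6-week replicate 2 had the highest neutrophil sum and a Ly6g level of 8.95, against 6.56 and 6.43 in the other 6-week arrays. It was also the highest Mo 6-week array for Cybb, Cyba, Ncf1, Rac2 and Hvcn1, though not for Ncf4. Without that array Ncf1, Ncf4 and Rac2 were still called at 6 weeks against naive mice, and Cyba and Hvcn1 were not. The part of these shifts in the Mo changes was not tested.

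**Figure D5:**
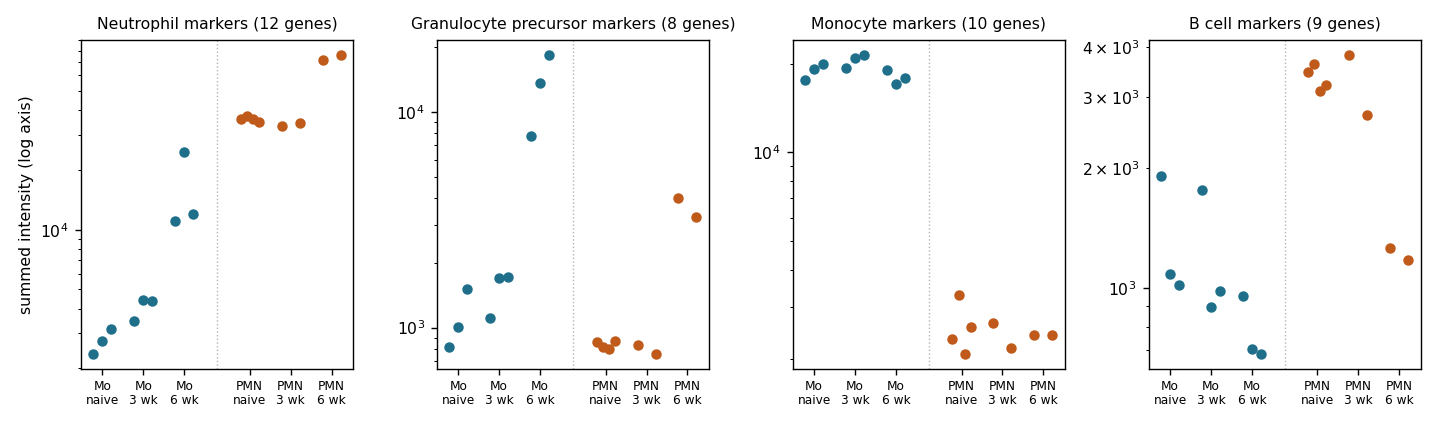
Summed intensity of neutrophil, granulocyte precursor, monocyte and B cell marker genes in every array (log axes with a range of their own), by subset and stage. Precursor markers reach 18350 in Mo at 6 weeks, and B cell markers in PMN at 6 weeks lie between 1173 and 1261, below the naive PMN arrays.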

How the data were processed

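The authors deposited 1 table of intensities from 17 arrays, made with RMA per the submitters' processing notes, with no version or setting given in the sources used here. The values run from 9.76 to 32095 without a log, and their log2 was taken. Arrays of 1 subset shared a median of 942.5 (Mo) or 251 (PMN) distinct values a pair and arrays of different subsets 146, so the subsets were treated as normalized apart. Of 35557 features, those with 1 gene symbol were used, 1 for each of 19938 genes (the feature with the highest mean). The plan assumed log2 values and the test was kept.

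All arrays entered 1 fit with a mean for each of 6 groups (limma 3.58.1, R 4.3.3), two-sided, with Benjamini-Hochberg adjustment over 19938 genes and a threshold of 0.05. The number of arrays, 2 to 4 a group, limits the precision. The pipeline was tested on simulated data. Every member is given. From each other list, genes were named among the 4 largest changes that passed in a comparison, with Cybc1 and Rac1 always. A gene named beside 1 subset has its other value beside it. Members and lists were chosen with earlier results of these data known. Alternatives were median centring, joint quantile normalization, a floor of 64, leaving out dim genes, each subset alone, array weights, a trend with robust variances, the replicate number as a block, the lowest-mean feature and each array left out.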

Additional observations from a re-analysis of the deposited data

Results flagged for a closer look

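Among the 6 groups of 4 arrays examined for an array far from the rest (naive PMN, 1 per member), Cyba stood out: replicate 2 lay at 9.98, against 9.40, 9.28 and 9.28 in the other naive PMN arrays, a gap of 0.832 of the range. Chance marks about 1 in 20 such groups.

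The change at 6 weeks against naive mice differed between Mo and PMN, Mo minus PMN, by -1.81 for Cybb, -1.38 for Cyba, -1.13 for Ncf1 and -1.08 for Ncf4. The change at 6 weeks against 3 weeks differed by -2.18 for Cybb, -1.79 for Cyba, -1.60 for Ncf1, -1.72 for Ncf4, -0.98 for Rac2 and -0.97 for Hvcn1. In each of these the change in PMN was the more positive one.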

How the results depend on the processing

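No member that passed changed direction under any setting tried. In PMN all 6 members were called at 6 weeks, against naive mice and against 3 weeks, under all 9 other settings and with each array left out, and no member was called at 3 weeks. In Mo at 6 weeks against naive mice, joint quantile normalization gave 2 members higher and 1 lower, each subset alone gave 1 lower, and leaving out an array gave 3 to 5 higher. In Mo at 3 weeks against naive mice, a floor of 64 and each subset alone gave 0 higher, array weights and the replicate block gave 3, and leaving out an array gave 0 to 3. In Mo at 6 against 3 weeks, median centring, joint quantile normalization and a floor gave 0 higher, array weights and the replicate block gave 2, and leaving out an array gave 0 to 2. For the difference at 3 weeks, Mo minus PMN, array weights gave 4 members higher, the replicate block gave 1, and leaving out an array gave 0 to 2. The cause was not tested. Replicate numbers were not treated as pairs, since not every same-numbered pair correlated in its deviations by over 0.1. In Mo the correlations were between 0.46 and 0.63 for numbers 1 and 3 and between -0.09 and 0.28 for number 2, and in PMN between -0.46 and 0.02. As a hint from the data and not the design, 6 of 9 Mo arrays correlated best with their own number. The PMN count, 1 of 8, cannot speak to pairing. Naive PMN replicates 3 and 4 have no same number at the other stages. The 2 arrays of a PMN tumour group also have mirrored deviations from their mean. With the block, Cyba and Rac2 also passed in Mo at 3 weeks against naive mice. Beyond the block counts given above, the replicate block changed no count of members by over 1.5 times. Over all genes, the calls behind the printed shares ran, over settings and arrays left out, from 4475 to 12727 in Mo at 6 weeks against naive mice (9204 as reported), from 2 to 13210 at 3 weeks (1202) and from 877 to 3731 at 6 against 3 weeks (1497). In PMN at 6 against 3 weeks they ran from 7627 to 13644 (11694), and at 3 weeks from 0 to 13 (0). For Mo minus PMN they ran from 2098 to 5709 at 6 weeks against naive mice (3487), from 3641 to 10262 at 6 against 3 weeks (5818) and from 0 to 6358 at 3 weeks (1). Median centring added 0.19 to every 6-week change against naive mice in Mo and in PMN, 0.14 to every 3-week change in Mo and 0.21 to the change at 6 against 3 weeks in PMN.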

Other observations

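Within Mo, replicate 1 was often the lowest of its group. In naive mice replicate 1 was lowest of 3 for Cybb, Ncf1 and Rac2. At 3 weeks replicate 1 was lowest of 3 for Cyba, Ncf1, Ncf4 and Rac2, with Cyba at 10.88 against 11.46 and 11.46, and Ncf4 at 10.22 against 10.81 and 10.79. At 6 weeks replicate 1 was lowest for Cyba, Ncf1, Ncf4, Rac2 and Hvcn1. The same arrays had the highest B cell marker sums of their groups, 1907 in naive mice, 1757 at 3 weeks and 957 at 6 weeks, and the lowest precursor marker sums, 811 in naive mice, 1111 at 3 weeks and 7728 at 6 weeks. These arrays also had the highest median log2 intensity of their groups, 6.833 in naive mice (6.826 in replicate 2), 6.80 at 3 weeks and 6.70 at 6 weeks. Their upper quartiles of intensity were the lowest of their groups, at 254, 264 and 278. The link of the member levels to the marker sums or to intensity over the whole array was not tested.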
